A study of Mus musculus with 10 samples.

Results

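The immunoglobulin genes described here are the constant and variable genes of the antibody chains, together with the joining chain, in RNA sequencing of purified cardiomyocytes (CMs) from old and young mice. They were taken by name, as every feature whose symbol starts with Ighg, Igha, Ighv, Igkv, Igkc, Iglv or Iglc, or is Ighm, Ighd or Igj, and whose value was above 0 in at least 1 of 10 libraries. Of 37819 features, 228 bore such a name and 71 of them were above 0, so the members were chosen by their own values and being above 0 is no finding. They comprise 7 constant-region genes, 22 heavy-chain variable segments (Ighv), 40 kappa variable segments (Igkv), 1 lambda variable segment (Iglv) and the joining chain gene Igj. No feature bore the name Igha or Ighd, so IgA and IgD constant regions were not analysed here, and Ighg1, the IgG1 constant region, was listed at 0 in all 10 libraries.

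Old libraries came from inbred C57BL6J mice of 20 months and young libraries from the same strain at 3 months, with 5 libraries of each age. The labels name no transgene or drug in either group, and the study's methods give mice of both sexes. In both, hearts were digested enzymatically on a Langendorff setup, myocytes were sedimented, and cells positive for CD31, CD45 or SCA1 were removed with biotinylated antibodies. CD45 is the surface antigen common to leukocytes, including B cells. Whether each library came from 1 animal is not given by the labels, so p-values measure only the spread between these libraries.

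An antibody consists of paired heavy and light chains. The variable region of each chain is assembled in B cells by joining a variable segment to a short joining segment, with a diversity segment between them in heavy chains only, and the constant region of the heavy chain sets the class, so that Ighm encodes IgM and the Ighg genes encode the IgG subclasses. Naive B cells express IgM and IgD, class switching replaces the heavy constant region with one lying further downstream, and plasma cells secrete antibody in bulk, with the joining chain linking IgM and IgA into polymers. Ighg2c encodes the heavy chain of IgG2c, which C57BL/6 mice carry in place of the IgG2a of other strains.

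The hinge exons of the IgG genes are shown because the subclasses differ strongly there, which sets out how far a fragment can be assigned to Ighg2c rather than to its neighbours. They were read from the mm9 assembly on the minus strand of chromosome 12, 5′ to 3′, and capitals mark runs of at least 9 bases found in the hinge of Ighg2c and in that of another subclass. The exons lie at chr12:114526474-114526536 for Ighg2c, chr12:114545472-114545537 for Ighg2b, chr12:114568055-114568093 for Ighg1 and chr12:114598740-114598787 for Ighg3.
Ighg2c hinge: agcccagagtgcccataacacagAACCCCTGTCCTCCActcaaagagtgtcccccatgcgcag
Ighg2b hinge: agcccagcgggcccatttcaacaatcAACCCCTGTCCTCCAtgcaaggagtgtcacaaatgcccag
Ighg1 hinge: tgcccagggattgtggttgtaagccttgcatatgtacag
Ighg3 hinge: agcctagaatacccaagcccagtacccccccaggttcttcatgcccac
Only the hinge of Ighg2b shared such a run with Ighg2c, and it was 15 bases long.

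A window of 155 bases in exon 3, which encodes part of the second constant domain, is shown because it holds most of what Ighg2c and Ighg2b share. It lies at chr12:114526080-114526234 for Ighg2c and chr12:114545080-114545234 for Ighg2b, minus strand, and the capital marks the 1 base that differs.
Ighg2c exon 3 window: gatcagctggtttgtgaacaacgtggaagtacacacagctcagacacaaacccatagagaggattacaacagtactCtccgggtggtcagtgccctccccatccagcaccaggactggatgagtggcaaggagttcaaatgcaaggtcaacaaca
Ighg2b exon 3 window: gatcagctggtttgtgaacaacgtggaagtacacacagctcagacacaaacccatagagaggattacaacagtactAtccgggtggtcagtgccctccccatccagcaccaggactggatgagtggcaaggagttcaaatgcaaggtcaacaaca
Counted from 1 at the 5′ end of the window, with the base of Ighg2c first, the difference is C77A. Of 918 stretches of 50 bases in the exons of Ighg2c, 56 (6.1%) also occurred in exons of Ighg2b and none in those of Ighg1, Ighg3 or Ighm. The longest identical run was 78 bases with Ighg2b, 41 with Ighg3, 28 with Ighg1 and 14 with Ighm. In the whole assembly, 3 runs of at least 50 bases matched Ighg2c outside its own locus, all on chromosome 12. They were the pair in exon 3 of Ighg2b and 1 run of 63 bases at chr12:114542525-114542587, which matched exon 6 of Ighg2c and lies downstream of the annotated Ighg2b exons.

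Expression is given as deposited FPKM, that is, fragments scaled to the length of the transcript and to the mapped fragments of each library. Total FPKM ranged from 1155614 to 3289461 between libraries, and the number of reads per library is not stated. The libraries were rich in CM markers, which summed to 28152 to 32107 FPKM in old CMs and 30280 to 33847 FPKM in young CMs over 8 genes. The mean log2(FPKM + 1) of endothelial markers, fibroblast markers and the surface antigens used for depletion was highest in Old 1 (4.23) and Young 4 (4.07). It was 3.11 to 3.59 in the other 8 libraries. These 2 libraries stand apart in stromal RNA, so results that rest on them are also given without them. In bulk RNA, fewer cells of a type and less RNA per cell cannot be told apart.

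Ighg2c was the dominant immunoglobulin transcript at both ages and was more abundant in old CMs. It had 14.0, 13.0, 11.2, 10.9 and 13.2 FPKM in Old 1 to Old 5, against 1.87, 2.18, 1.80, 3.56 and 3.72 FPKM in Young 1 to Young 5. Every old library lay above every young one, and the lowest old value was well clear of the highest young value. Means were 12.5 ± 1.33 FPKM in old CMs and 2.63 ± 0.937 FPKM in young CMs (SD, n = 5 each), a ratio of 4.74. On the log2(FPKM + 1) scale, the difference of old minus young was 1.92 with a standard error of 0.16 (limma, Benjamini-Hochberg adjusted p = 0.000334). A two-sided exact permutation test over the 252 arrangements of the libraries gave p = 0.00794, the smallest that 5 against 5 allows.

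Of the 71 members, Ighg2c alone reached the mean of 1 FPKM required for the test across all features, and 70 did not. The 1 member tested was therefore also the 1 member called higher with age, at an adjusted p under 0.05, and 0.689% of the 12340 features tested were called higher and 1.09% lower. The median log2 difference over all features tested was -0.0578, a small shift downwards. Among all features tested, its increase was the 14th largest. Without Young 4 and Old 1, the log2 difference of Ighg2c was 1.98 (limma, adjusted p = 0.00176).

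**Figure D1:**
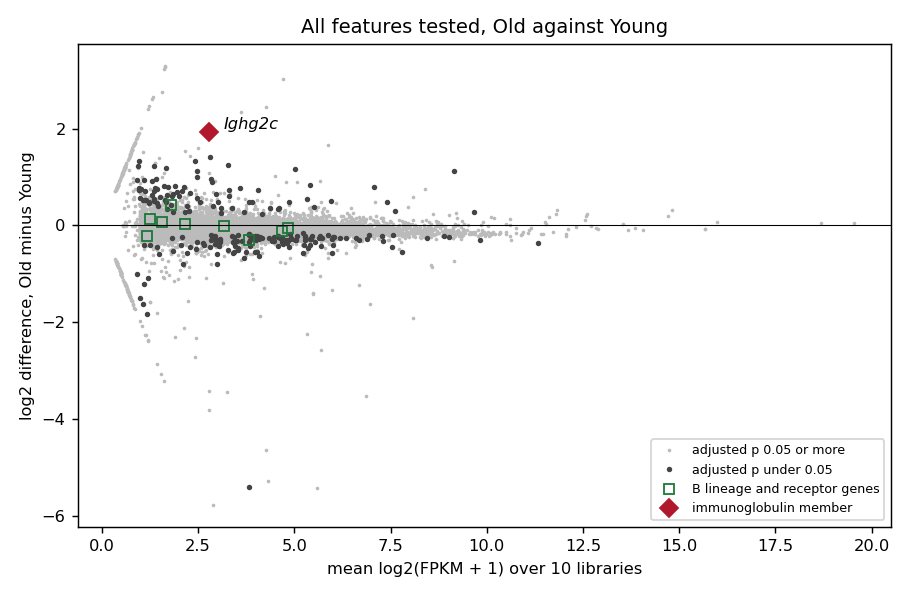
The log2 difference of Old minus Young CMs on the log2(FPKM + 1) scale (vertical) is plotted against the mean log2(FPKM + 1) over 10 libraries (horizontal) for the 12340 features tested; dark points passed an adjusted p of 0.05 and open squares mark 9 genes of B cells, plasma cells, recombination and immunoglobulin receptors. Ighg2c, the red diamond, sits at a difference of 1.92, while the squares lie between -0.31 (Ung) and 0.43 (Fkbp11, the 1 square that passed).

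The gene lies at chr12:114523536-114527141 (mm9, minus strand, ENSMUSG00000076612) and is annotated with 6 exons and 1212 exon bases. The authors' mean normalized count for it was 134, the largest of any member. No such increase was seen in the genes around it outside the immunoglobulin locus. Within 200 kb, the only other feature whose old libraries all lay above the young ones was Ighg3. The nearest protein-coding gene with a mean above 1 FPKM, Crip1, a LIM-domain protein, averaged 28.1 FPKM in old CMs and 34.5 FPKM in young CMs (limma, adjusted p = 0.568). Its neighbour Crip2, a related LIM-domain protein, averaged 619 FPKM in old CMs and 689 FPKM in young CMs (limma, adjusted p = 0.185).

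The remaining constant-region genes were all far less abundant than Ighg2c. As they stood below the level required for limma, each was compared by permuting the libraries exactly (two-sided, unadjusted), and 8 such tests were made including that of Ighg2c. Ighg2b and Ighg3 were also higher in old CMs by this test, whereas IgM, the light chains and the joining chain overlapped between the ages.

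Ighg2b encodes the IgG2b constant region and lies upstream of Ighg2c at chr12:114544600-114546144 (ENSMUSG00000076613). Its values were 0.297, 0.175, 0.124, 0.0229 and 0.139 FPKM in Old 1 to Old 5, against 0, 0.0178, 0.0205, 0.0420 and 0 FPKM in Young 1 to Young 5. All old libraries but Old 4 exceeded the young ones (exact permutation p = 0.0159). Relative to Ighg2c in the same library, Ighg2b stood at 0.00210 to 0.0212 in old CMs and at 0 to 0.0118 in young CMs, ranges that overlapped. The share that fragments from the sequence common to both genes take in the value of Ighg2b was not tested.

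Ighg3 encodes the IgG3 constant region, at chr12:114597876-114599443 (ENSMUSG00000076615). It had 0.0674, 0.0714, 0.0281, 0.0312 and 0.0271 FPKM in Old 1 to Old 5, whereas in young CMs it was listed at 0.0121 FPKM in Young 2 and at 0 in the other 4 libraries. The ages did not overlap (exact permutation p = 0.00794). With Ighg2c, it was 1 of 2 members of 71 whose old libraries all exceeded the young ones, a pattern shown by 1.23% of the 25202 features above 0 and by 1.19% of those that passed the filter. No member had all old libraries below the young ones, as 2.96% of the features above 0 did.

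Without Young 4 and Old 1, the exact permutation p was 0.0286 for Ighg2b and for Ighg3, the smallest that 4 against 4 allows. Hardly any reads were counted for either subclass. The authors' mean normalized count was 0.0968 for Ighg2b and 0 for Ighg3, though their FPKM were above 0 in 8 and 6 libraries. The FPKM of Ighg3 thus rest on fragments that the count did not assign to it. The origin of these fragments was not tested. When limma was run on all features above 0 with no filter on low values, neither Ighg2b nor Ighg3 passed the threshold. There the log2 difference was 0.18 for Ighg2b (limma, adjusted p = 0.170) and 0.06 for Ighg3 (limma, adjusted p = 0.0982). In that fit 1 of 71 members was called, Ighg2c, and 0.591% of all features were called in either direction and 0.349% higher in old CMs. Of the 71 members, 48 had a higher mean log value in old CMs and 23 a lower one, and their median difference was 0.02, against -0.0058 over all features above 0. As 40 of the 71 were above 0 in a single library, which fixes their direction, nothing is read from this split.

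Ighm, the IgM constant region that all B cells express first, was the second most abundant member. It was at 0.948, 0.640, 0.756, 0.741 and 0.672 FPKM in Old 1 to Old 5, against 0.333, 0.775, 0.520, 0.945 and 0.480 FPKM in Young 1 to Young 5. The ranges overlapped and the difference was within the spread of the libraries (0.751 ± 0.120 FPKM in old CMs and 0.610 ± 0.246 FPKM in young CMs, SD, n = 5 each, exact permutation p = 0.286). The ratio of Ighg2c to Ighm was 14.7 to 20.3 in old libraries and 2.82 to 7.76 in young libraries, so the ages separated on this ratio. Both are values per exon length, so the ratio compares levels of the transcripts.

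Light chains overlapped between the ages. Igkc, the kappa constant region at chr6:70676429-70676751 (ENSMUSG00000076609), was at 0.822, 0.181, 0.210, 0.965 and 0.833 FPKM in Old 1 to Old 5, against 0.668, 0.559, 0.211, 0.222 and 0.623 FPKM in Young 1 to Young 5. Values at each age fell into a high and a low range, and the ages overlapped (0.602 ± 0.375 FPKM in old CMs and 0.456 ± 0.222 FPKM in young CMs, SD, n = 5 each, exact permutation p = 0.5). Iglc2, a lambda constant region, was above 0 in 3 old libraries, at 0.0754, 0.157 and 0.0876 FPKM, and in 2 young libraries, at 0.0678 and 0.153 FPKM (exact permutation p = 0.524). Iglc3, another lambda constant region, was listed above 0 in Old 5 only, at 0.0804 FPKM.

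The summed light-chain constant genes stood far below the summed heavy-chain constant genes at both ages. The ratio of light to heavy was 0.0586, 0.0131, 0.0302, 0.0897 and 0.0649 in Old 1 to Old 5, against 0.303, 0.210, 0.0902, 0.0487 and 0.185 in Young 1 to Young 5. Young libraries therefore reached higher ratios, though Young 4 lay inside the old range. Igkc alone was 0.0140 to 0.0882 of Ighg2c in old libraries and 0.0622 to 0.357 of it in young libraries. These ratios are sums over a set chosen with earlier results known and were not tested.

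Igj, the joining chain that links polymeric antibodies and a product of antibody-secreting cells, was low and overlapped between the ages. Its values were 0.0546, 0.0453, 0.107, 0.126 and 0 FPKM in Old 1 to Old 5, against 0.148, 0.0979, 0.0848, 0.0289 and 0.0553 FPKM in Young 1 to Young 5. The difference was within the spread of the libraries (exact permutation p = 0.587), and the 1 library at 0, Old 5, held 13.2 FPKM of Ighg2c.

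**Figure D2:**
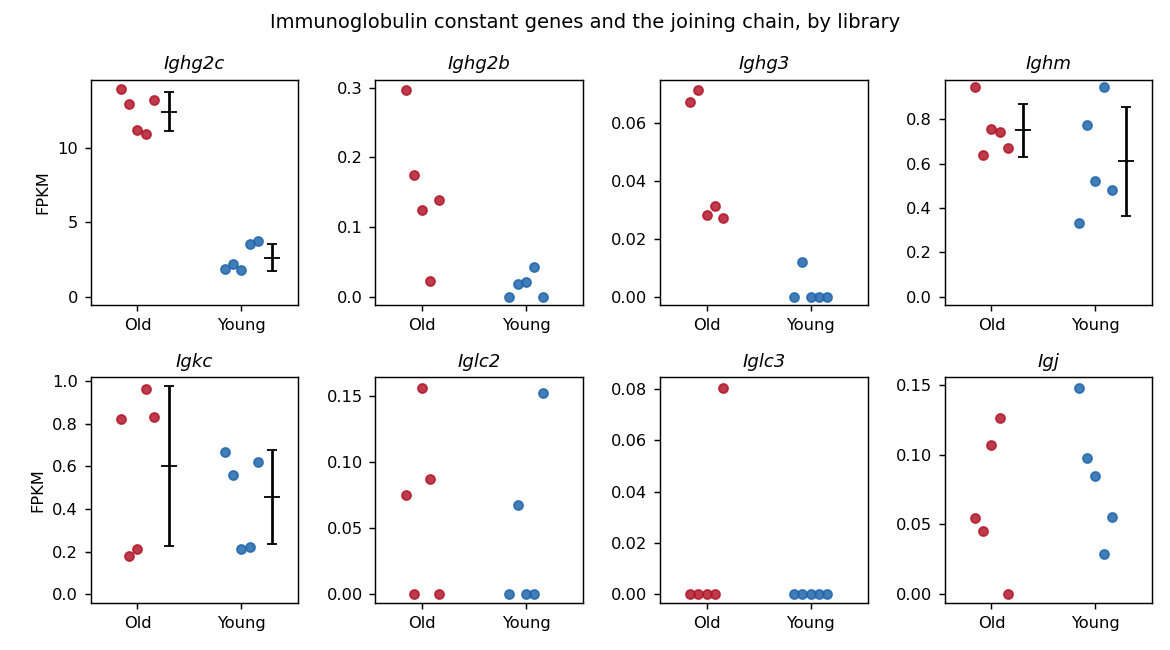
FPKM of the 7 constant-region members and Igj is shown with 1 point per library, Old on the left and Young on the right of each panel, each panel on its own vertical scale; black bars give mean ± SD for the genes above 0 in all 10 libraries. Old and Young are apart for Ighg2c and Ighg3, and Ighg2c runs on a scale above 10 FPKM while every other panel stays below 1 FPKM.

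Ighg2c made up most of the immunoglobulin signal in old CMs. It took 72.1% to 86.1% of the summed FPKM of all members in old libraries and 44.4% to 63.1% in young libraries. The summed FPKM of all members was 14.0 to 17.6 in old libraries and 3.03 to 6.16 in young libraries. Without Ighg2c the sum was 2.10 to 4.36 FPKM in old libraries and 1.22 to 2.57 FPKM in young libraries, and the ages overlapped.

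Variable segments, which a transcript of a rearranged antibody chain must carry, were detected at traces. Of 219 such features, 63 were above 0 in any library, and the highest value in any library was 0.505 FPKM, that of Ighv1-7 in Old 5. Of the 63, 39 were above 0 in 1 library alone and none in more than 4. The authors' mean count was 0 for 54 of them. No variable segment was thus measured across the libraries of an age, and none was tested singly.

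The number of segments above 0 was 10, 7, 14, 13 and 12 in Old 1 to Old 5, against 9, 13, 5, 5 and 7 in Young 1 to Young 5. Old libraries averaged 11.2 ± 2.77 segments and young libraries 7.8 ± 3.35 (SD, n = 5 each), and the ranges overlapped. Summed over all variable segments, old libraries held 0.983 to 2.61 FPKM and young libraries 0.387 to 1.20 FPKM, which also overlapped. At 0.1 FPKM or more, old libraries averaged 5.8 segments and young libraries 3.6, and no segment reached 1 FPKM.

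By age, 32 of the 63 variable members (50.8%) were above 0 in old libraries only and 16 (25.4%) in young libraries only, and 15 appeared at both ages. Of all 25202 features above 0, 6.46% were so in old libraries only and 4.88% in young libraries only. A segment above 0 in a single library, as 39 of the 63 were, falls in 1 age by construction, so nothing is read from these shares. The counts were 23 in old libraries only and 8 in young libraries only for kappa segments, and 8 and 8 for heavy-chain segments, and these were not tested.

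Among heavy-chain segments, Ighv1-53 had the highest mean. It was at 0.0776, 0.206 and 0.351 FPKM in Old 2, Old 4 and Old 5, and at 0.178 FPKM in Young 5. Ighv1-64 was at 0.343 and 0.0847 FPKM in Old 4 and Old 5, and at 0.159 FPKM in Young 2. Ighv1-55 appeared in Old 4 and Old 5 alone, at 0.206 and 0.0593 FPKM, and Ighv1-7 in Old 5 alone. All 4 belong to the large Ighv1 family and all had a value in Old 5, while Old 1 had none of them.

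Among kappa segments, Igkv1-117 reached 0.494 FPKM in Old 4, and was at 0.104 and 0.0869 FPKM in Young 1 and Young 3. Igkv6-17 was at 0.199 FPKM in Old 3, and at 0.194 and 0.271 FPKM in Young 1 and Young 2. Igkv12-41 was at 0.0920 and 0.499 FPKM in Old 3 and Old 5 and at 0 in the young libraries. Igkv8-24 appeared at 0.331 FPKM in Old 5 and at 0.178 FPKM in Young 1. Each leading kappa segment was thus listed in a different set of libraries, and none was above 0 in more than 3. The single lambda segment, Iglv3, was listed in Old 2 alone, at 0.144 FPKM.

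**Figure D3:**
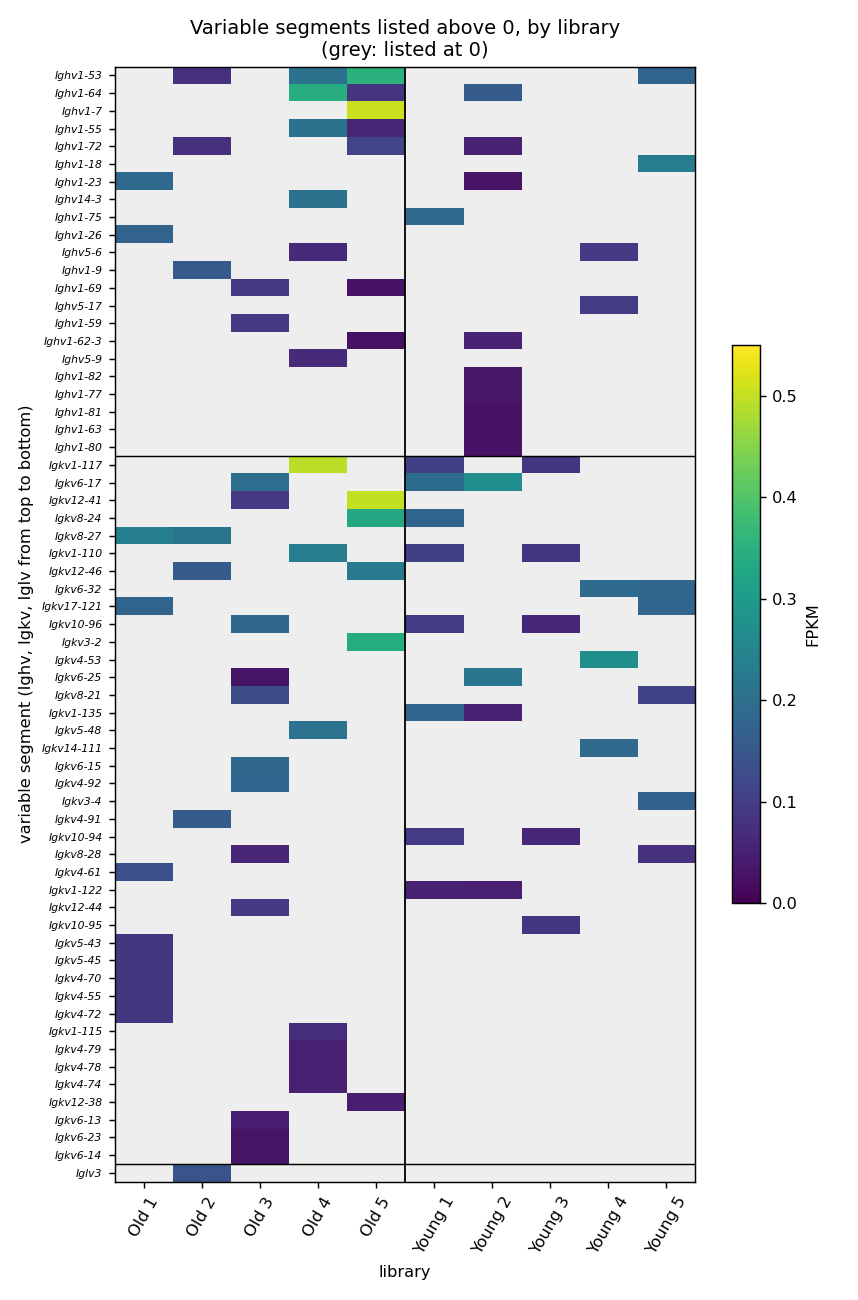
FPKM of the 63 variable segments above 0 in at least 1 library is shown by colour, with the libraries in columns (Old 1 to Old 5, then Young 1 to Young 5) and the segments in rows, by family and falling mean; grey marks a value listed at 0. Most segments have a single coloured cell, and no segment has more than 4.

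Whether all of these traces are separate segments was not tested. Of 95 values above 0, 35 (36.8%) were equal to that of another variable member in the same library. They formed 16 sets of 2 or 3 members, with 28 members in all, and no set mixed heavy-chain, kappa and lambda segments. The pair Igkv1-117 and Igkv1-110 had equal values in Young 1 (0.104 FPKM) and in Young 3 (0.0869 FPKM), whereas in Old 4 they differed, at 0.494 and 0.230 FPKM. The pair is shown because both carry the following run of 142 bases, in their exon 2, at chr6:68071652-68071793 in Igkv1-117 and at chr6:68221092-68221233 in Igkv1-110 (mm9, plus strand), with no capitals as no base differs.
Igkv1-117 and Igkv1-110 shared run: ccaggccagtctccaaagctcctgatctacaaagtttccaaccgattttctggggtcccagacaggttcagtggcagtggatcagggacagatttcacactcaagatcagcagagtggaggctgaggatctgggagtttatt
Another pair, Igkv10-96 and Igkv10-94, with equal values in Young 1 and Young 3, shared a run of 82 bases. Over the 16 sets, the run shared by the least similar pair of a set was 10 to 220 bases, so some sets of equal values had little sequence in common. Igkv10-96 and Igkv6-15, both of 347 exon bases, were equal in Old 3 (0.184 FPKM) with a shared run of 10 bases. Segments of equal length have equal FPKM whenever they hold equal numbers of fragments, so equal values alone do not show a shared fragment.

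Genes that mark the cells making antibody were next compared, to set the immunoglobulin values beside them. Plasma cells are known by Sdc1, Irf4, Prdm1, Xbp1, Tnfrsf17 and Mzb1, and B cells by Cd79a, Ms4a1 and Pax5. Of 13 plasma cell genes, 4 reached a mean of 1 FPKM and 1 was called higher in old CMs, with a median log2 difference of 0.07 over the 4. Of 16 B cell genes 1 was tested, of 8 genes of recombination and class switching 1, and of 12 immunoglobulin receptors and binding proteins 3, and none of these was called in either direction. In all, 1 of 9 genes was called, and 1.78% of all features tested were called in either direction.

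Fkbp11, a peptidyl-prolyl isomerase of the endoplasmic reticulum abundant in secretory cells including plasma cells, was the gene called. It had 2.53, 3.33, 3.55, 2.87 and 3.08 FPKM in Old 1 to Old 5, against 2.24, 2.49, 1.77, 1.75 and 1.91 FPKM in Young 1 to Young 5. The ages did not overlap, though Old 1 and Young 2 nearly met. Its log2 difference was 0.43 with a standard error of 0.09 (limma, adjusted p = 0.0482). The call was lost when any 1 library was left out, at a limma adjusted p of 0.0610 to 0.124, and without Young 4 and Old 1 together, at 0.0917.

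The other plasma cell genes tested were Sdc1, the surface proteoglycan syndecan-1, Xbp1, a transcription factor of the unfolded protein response, and Ell2, an elongation factor used in immunoglobulin secretion. Their log2 differences were 0.12 for Sdc1 (limma, adjusted p = 0.330), -0.11 for Xbp1 (limma, adjusted p = 0.368) and 0.02 for Ell2 (limma, adjusted p = 0.943). None passed the test. Xbp1 stood at 21.0 to 25.9 FPKM in old CMs and 23.1 to 27.5 FPKM in young CMs, so it took most of the list's summed 31.1 to 35.6 FPKM in old CMs and 32.4 to 36.9 FPKM in young CMs. The 9 plasma cell genes under a mean of 1 FPKM summed to 1.76 to 2.09 FPKM in old CMs and 1.81 to 2.13 FPKM in young CMs.

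Plasma cell genes differed widely in level. Sdc1 was at 1.45 to 1.56 FPKM in old CMs and 1.14 to 1.51 FPKM in young CMs, and Prdm1, a repressor that drives plasma cell formation, at 0.321 to 0.677 FPKM in old CMs and 0.309 to 0.717 FPKM in young CMs. Slamf7, a surface receptor of plasma cells and other leukocytes, was at 0.0292 to 0.201 FPKM in old CMs and 0.0101 to 0.0575 FPKM in young CMs. Others were at or near 0. Tnfrsf17, the receptor BCMA of plasma cells, was listed at 0.0453 and 0.179 FPKM in Old 2 and Old 4, at 0.0520 FPKM in Young 5 and at 0 in the other 7 libraries. Irf4, a transcription factor that plasma cells require, was at 0.0297 to 0.0928 FPKM in old CMs and 0.0306 to 0.0860 FPKM in young CMs. Mzb1, a chaperone of antibody secretion, was at 0.261 to 0.558 FPKM in old CMs and 0.320 to 0.514 FPKM in young CMs. Derl3 and Pou2af1 had lower means in old CMs. Derl3 was at 0 to 0.101 FPKM in old CMs and 0.0303 to 0.128 FPKM in young CMs. Pou2af1 was at 0 to 0.0146 FPKM in old CMs and 0 to 0.0425 FPKM in young CMs. In each case the ages overlapped, unlike for Ighg2c.

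Of the B cell genes, 15 of 16 stood under 1 FPKM. Cd72, a coreceptor of B cells, was the 1 tested, at 7.64 to 8.54 FPKM in old CMs and 7.50 to 9.50 FPKM in young CMs (log2 difference -0.01, limma, adjusted p = 0.948). The other 15 did not exceed 0.547 FPKM in any library and summed to 0.654 to 1.75 FPKM in old CMs and 0.640 to 1.09 FPKM in young CMs. Pax5, the factor that holds B cell identity, was at 0 to 0.0464 FPKM in old CMs and listed at 0 in all young libraries. The part of B cells and plasma cells in the value of Ighg2c was not tested beyond these levels.

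Genes that rearrange or switch antibody loci were at 0 or traces besides Ung, a uracil glycosylase that most cells use for DNA repair. Ung was at 10.8 to 12.9 FPKM in old CMs and 9.97 to 17.9 FPKM in young CMs (log2 difference -0.31, limma, adjusted p = 0.249). Igll1, a part of the surrogate light chain of precursor B cells, was at 0 in all 10 libraries. The 7 genes besides Ung summed to at most 0.287 FPKM in an old library and 0.133 FPKM in a young one.

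Receptors that bind antibody did not pass the test in either direction. Fcgrt, the neonatal Fc receptor that recycles IgG, was at 26.0 to 27.7 FPKM in old CMs and 24.2 to 32.7 FPKM in young CMs (log2 difference -0.06, limma, adjusted p = 0.658). Fcgr3, an activating IgG receptor of myeloid and NK cells, was at 0.667 to 1.46 FPKM in old CMs and 1.03 to 2.65 FPKM in young CMs (log2 difference -0.22, limma, adjusted p = 0.533). Fcer1g, the signalling chain shared by Fc receptors, was at 1.21 to 3.53 FPKM in old CMs and 1.35 to 3.27 FPKM in young CMs (log2 difference 0.08, limma, adjusted p = 0.878). The highest values of Fcgr3 and Fcer1g fell in Old 1 and Young 4, the libraries with most stromal RNA. Ighg2c was highest in Old 1 and Young 5 (3.72 FPKM), with Young 4 close behind among young libraries at 3.56 FPKM. Young 5 had the lowest mean log2(FPKM + 1) of stromal markers of all libraries, at 3.11, against 4.07 in Young 4. The part of stromal RNA in the value of Ighg2c was not tested.

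**Figure D4:**
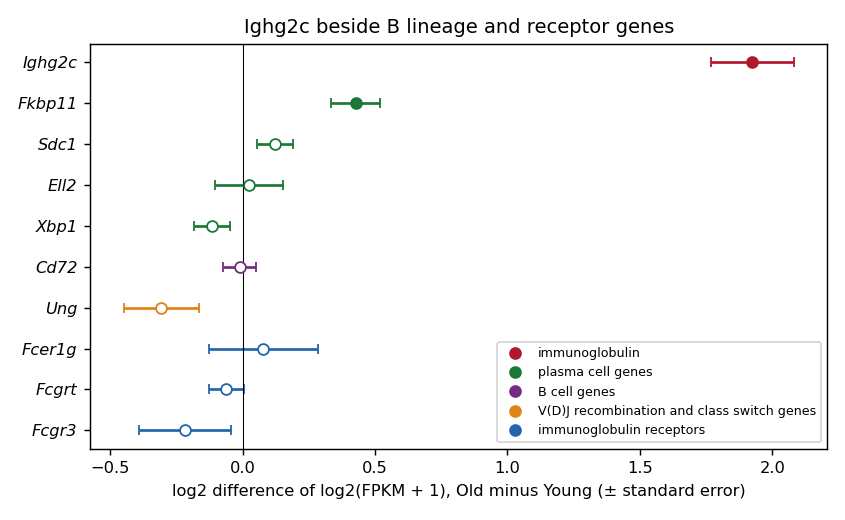
Log2 differences of Old minus Young CMs on the log2(FPKM + 1) scale (horizontal, bars ± standard error of limma, n = 5 libraries each) are shown for Ighg2c and for the 9 genes tested of the 4 lists, coloured by list; filled points passed an adjusted p of 0.05. Ighg2c stands at 1.92, Fkbp11 at 0.43, and the other 8 genes lie between -0.31 and 0.12.

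Markers of other cells that the depletion should remove were not all low. The 9 genes of T and NK cells summed to 0.311 to 1.12 FPKM in old CMs and 0.138 to 0.625 FPKM in young CMs. Gzmb was at 0 in all libraries, Cd8a had a lower mean in old CMs, and the others had higher means there. Cd3g was at 0.0390 to 0.311 FPKM in old CMs, and in young CMs above 0 in Young 5 only, at 0.0395 FPKM. None of these genes reached the mean required for limma. The 9 myeloid genes summed to 20.3 to 30.9 FPKM in old CMs and 16.4 to 47.0 FPKM in young CMs, and 0 of the 5 tested were called. The most abundant, Lyz2, the lysozyme of macrophages, was at 10.9 to 18.2 FPKM in old CMs and 9.17 to 30.9 FPKM in young CMs, levels in the range of Ighg2c or above it. Of the 3 surface antigens used for the depletion, Ptprc, which encodes CD45, was at 0.254 to 0.575 FPKM in old CMs and 0.189 to 0.472 FPKM in young CMs. RNA of the other two remained clearly present. Pecam1, which encodes CD31, was at 20.0 to 41.3 FPKM in old CMs and 19.3 to 39.9 FPKM in young CMs. Ly6a, which encodes SCA1, was at 42.1 to 118 FPKM in old CMs and 41.5 to 92.5 FPKM in young CMs. For all of these the ages overlapped, and their part in the result for Ighg2c was not tested.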

How the data were processed

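RNA of purified CMs from 5 old and 5 young libraries was sequenced paired-end. Per the study's methods and the labels, the authors aligned reads to mm9 with TopHat2, kept unique reads, counted them with HTSeq, compared ages with DESeq2 and computed FPKM per library with Cufflinks. The deposited FPKM of 37819 features were used after removing 1 stray header line. The deposited comparison holds a signal, the authors' mean normalized count over libraries, used only as such, and fold changes and p-values, not used. Its 10 columns of values per sample were also not used. Of its mean normalized counts, 73.9% fell in 5 entries that name no gene. Depth per library is not stated, so no counting intervals could be given.

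The 12340 features whose mean reached 1 FPKM entered limma 3.58.1 (R 4.3.3, eBayes with trend). Two-sided p-values on log2(FPKM + 1) were adjusted by Benjamini and Hochberg over all of them, at a threshold of 0.05. Fold changes on this scale are understated for low genes. The fit was tested on simulated data. For 8 members the libraries were also permuted exactly, two-sided. Gene positions are from the GENCODE annotation of mm9 and sequences from that assembly, read with Python 3.11.15. Plots used matplotlib 3.10.9.

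Named are every constant-region member and Igj, the 4 members of highest mean in each variable family, members called or not overlapping between ages, and up to 4 genes of lowest p per list. Tnfrsf17, Irf4, Mzb1, Pax5, Igll1, Prdm1, Slamf7, Ptprc, Pecam1, Ly6a, Lyz2, Gzmb, Crip1, Crip2, Igkv1-110, Igkv10-96 and Igkv10-94 were added after their values were seen. Some genes of the lists are not reported here. Members and lists were chosen with earlier results of these data known, including that of Ighg2c. Alternatives were a pseudocount of 0.1, no filter, a minimum of 5 FPKM, scaling by median ratios or to the same total, replicate blocks, robust eBayes, leaving out each library, and leaving out Young 4 and Old 1.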

Additional observations from a re-analysis of the deposited data

Results flagged for a closer look

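A library far from the others of its age was looked for in 39 groups of 5 values, and 2 were found. Chance gives about 1 in 20 for normally distributed values. In young CMs, Ighg3 was listed at 0.0121 FPKM in Young 2 and at 0 in the other 4 libraries. In old CMs, Iglc3 was at 0.0804 FPKM in Old 5 and at 0 in the other 4. A group with 4 values at 0 and 1 above 0 is flagged by construction, so nothing is read from either.

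Immunoglobulin features outside the members, namely joining segments and IgE, also carried values, some higher in old CMs and some in young CMs. Igkj1, a kappa joining segment of 38 bases, was listed at 4220 FPKM in Old 4 and at 0 in the other 9 libraries, with an authors' mean count of 0. Ighj4, a heavy-chain joining segment of 54 bases, was at 841 FPKM in Old 5, against 433 FPKM in Young 2. In the opposite direction, Igkj5, of 42 bases, was at 2503 FPKM in Young 5 alone, and Igkj2, of 43 bases, at 1340 FPKM in Young 2 alone. Of the 2 features named Ighe, 1 was at 0.0334 FPKM and 1 at 7.81e-06 FPKM, both in Old 1 alone.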

How the results depend on the processing

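Ighg2c was called higher in old CMs under all 19 alternatives, at log2 differences of 1.84 to 2.26. The limma adjusted p was 0.000167 to 0.0267. Only the fits with no filter, at either pseudocount, tested all 71 members, and there Ighg2c alone was called. In the other alternatives it was the only member tested, so being the only one called there was fixed in advance. With a minimum of 5 FPKM it passed the filter only through its old libraries (mean 12.5 FPKM, against 2.63 FPKM in young CMs). Over all features, 220 were called, against 135 with median-ratio scaling, 20 with the same total FPKM, 49 without Young 4 and Old 1 and 33 to 146 with 1 library left out. The split of 85 higher and 135 lower became 106 higher and 29 lower with median-ratio scaling, which moved the median log2 difference of all features to -8.19e-05.

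Of the B lineage and receptor genes, 1 was called, and 0 with no filter, a minimum of 5 FPKM, the same total, without Young 4 and Old 1, with 1 library left out (0 to 0), or with no filter and a pseudocount of 0.1, which was added after the data were seen. The gene, Fkbp11, had a limma adjusted p of 0.0862 with no filter, 0.9999 with the same total and 0.158 with the block. Variable segments per library averaged 5.8 in old and 3.6 in young CMs at 0.1 FPKM, and 0 in both at 1 FPKM. With 1 library left out they averaged 10.5 to 12.2 in old and 6.5 to 8.5 in young CMs.

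Differences near 0 changed sign. Ell2 was at -0.0134 with the same total and at -0.0502 to 0.0874 with 1 library left out. Cd72 was at 0.0499 with median-ratio scaling and at -0.0371 to 0.0393 with 1 library left out. Fcgrt was at 0.0047 with median-ratio scaling. With 1 library left out, Fcer1g was at -0.0660 to 0.220, Iglc2 at -0.0033 to 0.047 FPKM and Igj at -0.031 to 0.00036 FPKM. The cause of these changes was not tested.

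Same-numbered libraries did not deviate together (correlations of -0.155 to 0.0618, with 0 of 5 over 0.1). Of the libraries, 2 old and 0 young correlated best with their own number. What the numbers stand for is not given by the labels, and with 5 libraries per age these correlations cannot exclude a pairing. With the replicate number as a block, 26 features were called, 0 of the B lineage and receptor genes, and Ighg2c had a limma adjusted p of 0.0267. Values near 0 FPKM rest on few fragments, and their depth is unknown.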
